A study of Populus ussuriensis with 12 samples.

Results

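AP2-like, squamosa promoter-binding (SPL) and CEN/FT-type proteins are the factors that carry a plant from its juvenile to its adult phase and on to flowering, and 53 of the 35747 genes in the authors' expression table for leaves of the poplar Populus ussuriensis belong to these families. They were picked by a search of the protein descriptions, set with earlier results of these data known. By description, 6 genes are APETALA 2, 15 another AP2-like ethylene-responsive factor, 28 a squamosa promoter-binding protein and 4 a CEN-like protein or HEADING DATE 3A. RAP2-7, FLOWERING LOCUS T and TERMINAL FLOWER were searched for as well and describe no gene. The table's own domain column, which the choice did not use, lists an AP2 domain for 20 of the 21 AP2-like genes, an SBP domain for 27 of the 28 SPL genes and a PBP domain for 4 of the 4 CEN/FT-type genes. The exceptions are Potri.016G056400 and Potri.007G094600.

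The 12 mRNA libraries form 4 groups of 3: a line overexpressing the microRNA Pu-miR172d (OE) after 4 days without water, the same line watered, wild type (WT) after 4 days without water, and wild type watered. Plants of every group were 70 days in soil, and each library was made from leaves 7 and 8 below the shoot tip. The promoter of the transgene, whether OE is 1 line or several, and whether replicates are single plants or pools are not stated by the labels, so the spread between replicates may be partly technical. The study asks how the microRNA bears on the poplar leaf's answer to drought. The table holds protein-coding genes, so the level of Pu-miR172d itself was not analysed here.

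In Arabidopsis, the microRNA miR156 is high in young plants and holds down most SPL factors, and as it declines the SPL factors rise and switch on the genes for miR172. miR172 in turn holds down APETALA 2 and its relatives TOE, SMZ and SNZ, partly by cutting their transcripts and partly by blocking their translation, and these proteins repress FT. FT is the mobile flowering signal made in leaf phloem, and its relatives of the CEN and TERMINAL FLOWER kind oppose it at the shoot tip. AINTEGUMENTA and its close relatives share the AP2 domain but in Arabidopsis are not miR172 targets and act in organ growth.

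Values are FPKM, the authors' fragments per kilobase of gene, scaled to the library's fragment total. The FPKM steps give 9681400 to 12130588 fragments a library. The 25373 genes that reached 1 FPKM in 3 or more libraries were tested with limma on log2(FPKM + 1). A gene is called where the Benjamini-Hochberg adjusted p over all of them is under 0.05. Fold changes are log2 differences on that scale ± SE from this fit, which understates the change of weak genes. Drought shifted the whole leaf transcriptome: the median of all tested genes lay at -0.13 for drought minus watered in OE, 0.25 in WT, -0.24 for OE minus WT under drought, 0.05 for OE minus WT in watered leaves and -0.28 for the difference between the drought responses. The calls were therefore repeated under median-of-ratios scaling. A call is said below to hold throughout where it stayed under every alternative pseudocount, filter, scaling and fit and every left-out library for which the gene was tested, a demand for a log2 fold change of at least 1 aside. The leaf label holds by its markers: the summed FPKM of 29 genes for the Rubisco small chain and chlorophyll a-b binding proteins was 26302 to 38103 in OE watered leaves and 38435 to 47002 in WT watered leaves. Under drought it was 198 to 1135 in OE and 2270 to 4038 in WT, and 25 and 24 of these genes were called lower in OE and WT, with none higher. In bulk samples fewer cells of a type and less RNA per cell cannot be told apart, and the part of this fall in the results below was not tested. Markers of guard cells (3 genes), flowers (4) and roots (3) summed to at most 35.9, 31.8 and 32.5 FPKM in any library.

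Of the 53 genes, 40 passed the filter and were tested: 6 of 6 APETALA 2 genes, 7 of 15 other AP2-like genes, 25 of 28 SPL genes and 2 of 4 CEN/FT-type genes. Among the 13 that did not pass, 10 reached 1 FPKM in no library. Of those tested, Potri.002G142200 reached 1 FPKM only in drought libraries, and Potri.004G046700 and Potri.010G179700 only in watered ones, so the choice of genes tested favours a difference between watering regimes for these 3.

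In watered leaves no member was called different between OE and WT. None of the 40 was called higher or lower, where 0.0985% of all tested genes were called higher and 0.0394% lower (0.138% together). An unadjusted p under 0.05 from limma was found for 2 of the 40 members, and for 2277 of all 25373 tested genes. limma-voom on the recovered fragments also called none of the 40. Under drought the genotypes separated: 6 members were higher and 7 lower in OE, against 9.23% higher and 20.4% lower among all tested genes (29.6% together). In OE, 11 of the 40 rose with drought and 19 fell, where 27.8% of all genes were called higher and 35% lower (62.8% together). In WT, 10 rose and 9 fell, against 33.9% higher and 21.7% lower (55.6% together). The difference between the drought responses, OE response minus WT response, was called for 10 members, 4 more positive and 6 more negative in OE, against 4.58% and 10.5% of all genes (15.1% together). Under median-of-ratios scaling these splits of higher and lower became 8 and 5 (OE minus WT under drought), 11 and 18 (OE drought), 9 and 16 (WT drought) and 7 and 3 (difference between responses). The last count rested on single libraries: 3 were called without WT watered replicate 1, 4 without WT drought replicate 4, 5 when OE watered replicate 1, WT drought replicate 5 or WT watered replicate 2 was left out, 6 without OE drought replicate 4 and 15 without WT drought replicate 6. The count for OE minus WT under drought was 20 without WT drought replicate 6 and 7 when the 2 drought groups were fitted alone.

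The split that ran through these counts lay within the SPL genes. SPL types that carry a miR156 site in the species of their best protein match were called lower more often than higher with drought, and types without such a site were called higher more often than lower. The types were set from the accession of that match after values had been seen, because the descriptions mix Arabidopsis, rice and snapdragon numbering, so the split is a description. Of the 15 tested genes of the site type, 1 rose and 10 fell in OE and 2 rose and 5 fell in WT. Of the 10 tested genes without a site, 8 rose and 1 fell in OE and 6 rose and 1 fell in WT. Among all tested genes, 27.8% were called higher and 35% lower in OE, and 33.9% higher and 21.7% lower in WT. The site type was called lower in 66.7% of its tested genes in OE and 33.3% in WT. Several of the site-type genes that fell in OE passed the filter without an OE drought library, as listed above, which favours such a fall. Genes without a site were called higher in 80% in OE and 60% in WT. The median log2 fold change of the site type was -0.93 in OE and -0.42 in WT, that of the genes without a site 0.88 in OE and 0.53 in WT, and that of all tested genes -0.13 in OE and 0.25 in WT. Summed levels moved alike: the 17 site-type genes together held 21.4 ± 8.00 FPKM in OE drought leaves, 79.7 ± 5.69 in OE watered leaves, 42.6 ± 4.73 in WT drought leaves and 84.1 ± 7.71 in WT watered leaves (SD, n = 3 each). The 11 genes without a site held 267 ± 3.71 FPKM in OE drought leaves, 109.8 ± 11.1 in OE watered leaves, 181 ± 31.6 in WT drought leaves and 116 ± 2.82 in WT watered leaves (SD, n = 3 each). Much of these changes came from a few genes. With drought in WT, mean FPKM went from 21.6 to 0.686 for Potri.004G046700 and from 20.3 to 6.06 for Potri.011G116800. In OE it went from 11.04 to 61.1 for Potri.002G002400, 11.4 to 56.8 for Potri.005G258700 and 0.226 to 36.7 for Potri.002G142200. Whether the poplar transcripts themselves hold a miR156 site was not analysed here. Read by number alone as Arabidopsis SPLs, 1 of 8 site-type genes rose and 6 fell in OE, and 8 of 15 others rose and 3 fell. In WT the split by number was weaker: 2 of the 8 rose and 3 fell, and 6 of the 15 others rose and 1 fell. The medians by number were -0.99 and 0.37 in OE and -0.30 and 0.135 in WT. In WT the others thus lay below the median of all tested genes, 0.25.

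**Figure D1:**
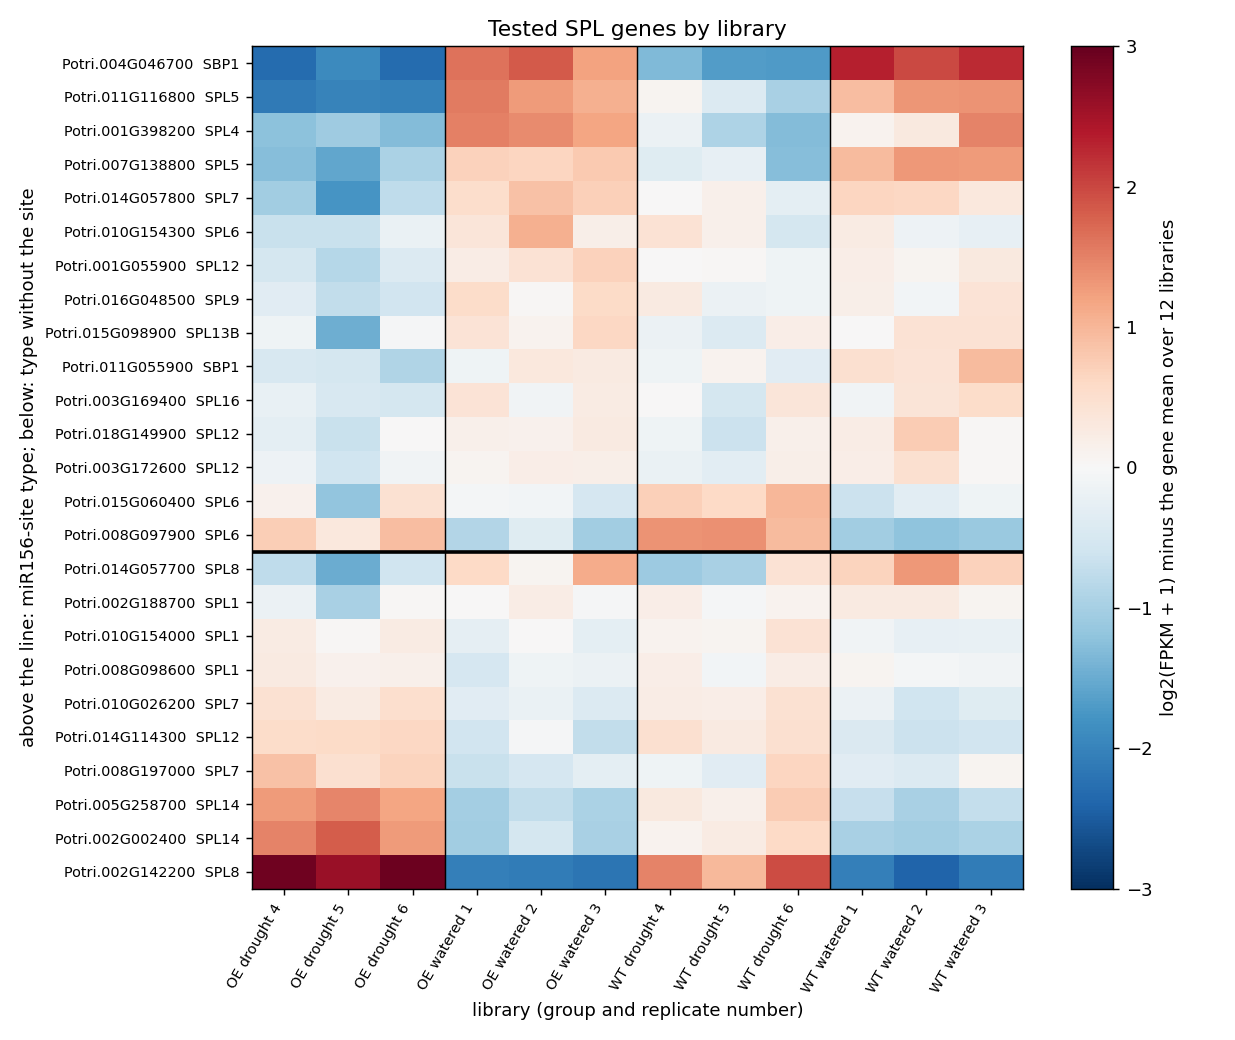
Colour shows log2(FPKM + 1) of each of the 25 tested SPL genes (rows) in each of the 12 libraries (columns) minus the gene's own mean over the 12, red above and blue below, with colours saturating at 3. Above the thick line are the 15 genes of the miR156-site type and below it the 10 without a site. OE drought libraries are mostly blue above the line and mostly red below it.

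The 6 APETALA 2 genes are the poplar relatives of the Arabidopsis floral gene that is the founding miR172 target. In watered leaves their levels did not differ between OE and WT by more than the spread between replicates. The summed level of the 6 was 88.3 ± 23.8 FPKM in OE drought leaves, 103 ± 17.3 in OE watered leaves, 70.9 ± 4.46 in WT drought leaves and 91.5 ± 9.76 in WT watered leaves (SD, n = 3 each). In OE drought leaves replicate 5 stood apart, with a sum of 61.4 FPKM against 96.5 in replicate 4 and 107 in replicate 6. Under drought 3 of the 6 were higher in OE than in WT and none was lower. Of all tested genes, 9.23% were called higher and 20.4% lower in that comparison. The median difference of the 6 was 0.53, where the median of all tested genes was -0.24. After drought, 1 of the 6 rose and 2 fell in OE, where 27.8% of all tested genes were called higher and 35% lower. The 33.3% of the 6 that fell in OE was thus near the share of all genes. In WT none rose and 2 fell, against 33.9% higher and 21.7% lower among all tested genes. Under median-of-ratios scaling the counts for the 6 became 1 and 1 in OE and 0 and 4 in WT.

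Potri.005G140700 (chromosome 5, bases 11805773 to 11809765 on the plus strand, in the coordinates of the authors' table) had 9.24, 8.19 and 9.67 FPKM in OE drought leaves, 11.97, 16.2 and 11.4 FPKM in OE watered leaves, 3.45, 4.31 and 5.2 FPKM in WT drought leaves and 15.3, 15.1 and 14.5 FPKM in WT watered leaves. Its WT drought libraries were the lowest of the 12 and overlapped no other group. It fell with drought in OE (-0.49 ± 0.17, adjusted p = 0.0269) and further in WT (-1.60 ± 0.17, adjusted p = 1.73e-05). Under drought it was higher in OE than in WT (0.93 ± 0.17, adjusted p = 0.00339), and the difference between the responses was also called (1.11 ± 0.24, adjusted p = 0.0153). The fall in OE did not hold under median-of-ratios scaling, nor without OE drought replicate 4 or 5, or OE watered replicate 2 (adjusted p up to 0.109), and the other 3 calls held throughout.

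Potri.010G216200 (chromosome 10, bases 20332984 to 20337268 on the plus strand) had 10.3, 6.33 and 13.3 FPKM in OE drought leaves, 3.98, 8.02 and 4.88 FPKM in OE watered leaves, 4.32, 3.43 and 3.09 FPKM in WT drought leaves and 6.54, 4.00 and 6.79 FPKM in WT watered leaves. All 3 OE drought libraries lay above all 3 WT drought libraries (1.21 ± 0.29, adjusted p = 0.0109), and this call held throughout. The watered groups overlapped (-0.05 ± 0.29, adjusted p = 0.985). Drought raised it in OE by a margin close to the threshold (0.72 ± 0.29, adjusted p = 0.0462), and the difference in WT was not called (-0.54 ± 0.29, adjusted p = 0.134). Its drought responses in OE and WT did not differ by the test (1.26, adjusted p = 0.058). The rise in OE did not hold under a pseudocount of 0.1 FPKM, no filter or a fit of the compared groups alone, nor without OE drought replicate 4 or 6, OE watered replicate 1 or 3, WT drought replicate 4 or 5, or WT watered replicate 1 or 3 (adjusted p up to 0.178).

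Potri.016G084500 had 14.1, 12.2 and 14.01 FPKM in OE drought leaves, 15.7, 13.5 and 14.1 FPKM in OE watered leaves, 4.31, 10.95 and 8.35 FPKM in WT drought leaves and 11.99, 11.7 and 13.6 FPKM in WT watered leaves. The OE groups overlapped (-0.09 ± 0.24, adjusted p = 0.754). In WT it fell with drought (-0.67 ± 0.24, adjusted p = 0.0323), and WT drought replicate 4 was the lowest library. Its drought responses in OE and WT did not differ by the test. Under drought it was higher in OE than in WT (0.78 ± 0.24, adjusted p = 0.0312). That difference did not hold under a fit of the compared groups alone or the replicate block, nor without OE drought replicate 4, 5 or 6, or WT drought replicate 4 (adjusted p up to 0.126), and the fall in WT did not hold under a fit of the compared groups alone, nor without WT drought replicate 4, or WT watered replicate 1, 2 or 3 (adjusted p up to 0.11).

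The other 3 APETALA 2 genes showed no called difference between OE and WT. Potri.007G046200 had 14.8, 11.1 and 16.3 FPKM in OE drought leaves, 19.4, 32.00 and 20.6 FPKM in OE watered leaves, 13.1, 14.2 and 10.1 FPKM in WT drought leaves and 20.8, 16.1 and 18.6 FPKM in WT watered leaves, and its fall with drought in OE (-0.71 ± 0.22, adjusted p = 0.0128) did not hold without OE drought replicate 5, or OE watered replicate 2 (adjusted p up to 0.0549). Its difference in WT was of like size and lay on the threshold (-0.54 ± 0.22, adjusted p = 0.0501). Potri.006G132400 had 19.3, 11.4 and 22.5 FPKM in OE drought leaves, 18.3, 21.1 and 16.2 FPKM in OE watered leaves, 14.4, 11.7 and 15.6 FPKM in WT drought leaves and 16.6, 13.2 and 16.7 FPKM in WT watered leaves. Its OE and WT libraries overlapped under drought and when watered, and so did drought and watered libraries within each genotype. Potri.008G045300, the highest of the 6 in WT drought leaves, had 28.8, 12.2 and 31.1 FPKM in OE drought leaves, 24.7, 32.5 and 25.8 FPKM in OE watered leaves, 26.2, 28.2 and 31.8 FPKM in WT drought leaves and 27.7, 20.3 and 25.03 FPKM in WT watered leaves, and OE drought replicate 5 was the lowest of its 12 values. In watered leaves the 95% intervals of the OE minus WT difference were -0.56 to 0.19 for Potri.005G140700, -0.68 to 0.58 for Potri.010G216200, -0.33 to 0.73 for Potri.016G084500, -0.14 to 0.80 for Potri.007G046200, -0.25 to 0.74 for Potri.006G132400 and -0.45 to 0.80 for Potri.008G045300. Differences within these intervals are not excluded.

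**Figure D2:**
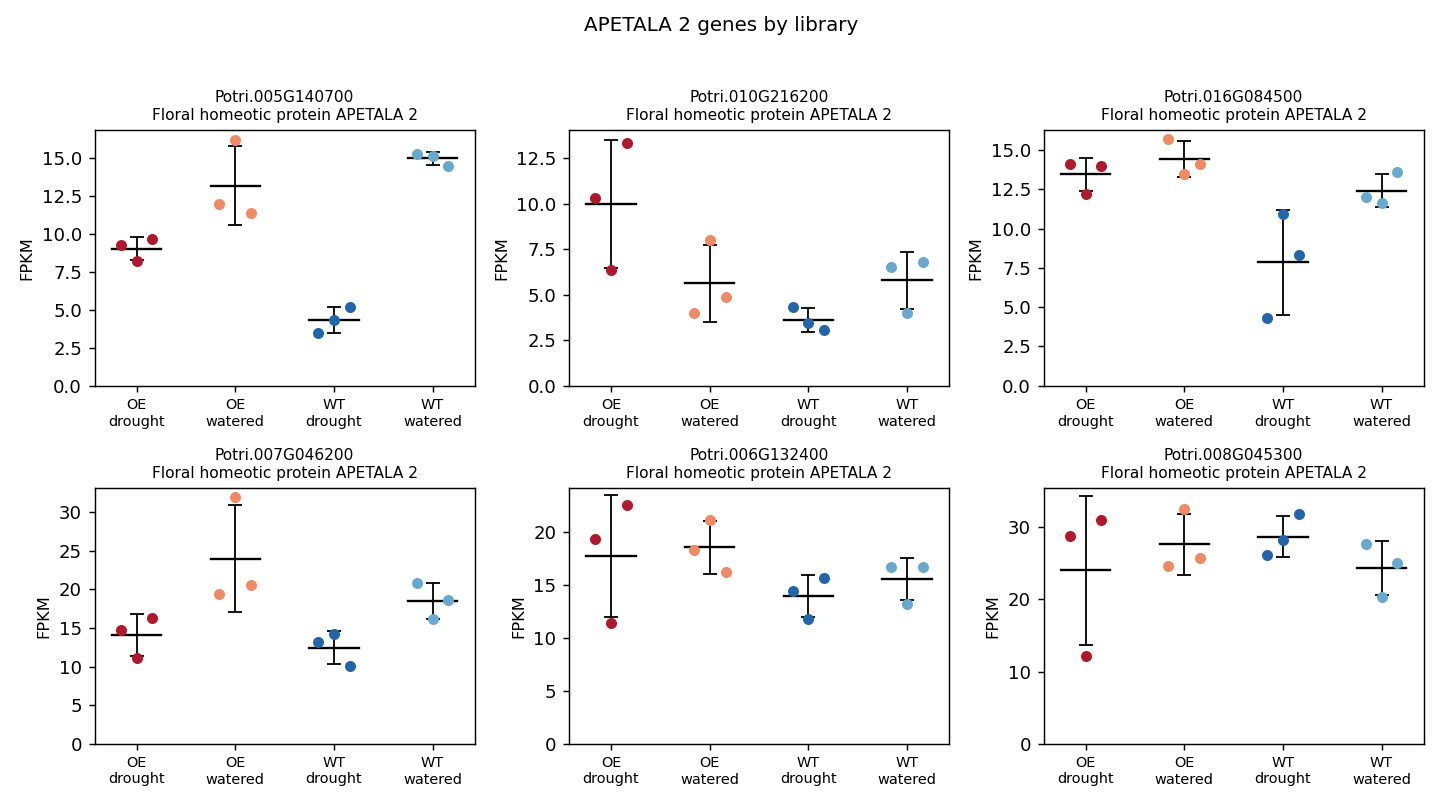
Each panel plots FPKM of 1 of the 6 APETALA 2 genes (vertical axis, from 0) in OE drought, OE watered, WT drought and WT watered leaves, with a point for each library and bars for the mean ± SD of 3. WT drought points lie below OE drought points without overlap in the panels of Potri.005G140700, Potri.010G216200 and Potri.016G084500.

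Among the other AP2-like factors drought lowered the tested part of the AINTEGUMENTA group in OE. The 4 tested genes of that group of 10 (2 described as AINTEGUMENTA, ANT, and 2 as AIL5) all fell with drought in OE, and 1 fell in WT. Of all tested genes, 35% were called lower in OE and 21.7% in WT. The 4 are weakly expressed, with group means of at most 4.93 FPKM. Potri.002G114800, Potri.006G167700 and Potri.018G091600 reached 1 FPKM in no OE drought library, so the filter favours their fall in OE. ANT keeps cells dividing in young organs, and AIL5, also called PLETHORA 5, acts in seedling growth and root branching in Arabidopsis. Those not tested are 3 further ANT genes, the 2 AIL1 genes and the AIL6 gene. Of these, ANT genes Potri.007G007400 and Potri.005G148400 came closest to the filter, each with 2 libraries at 1 FPKM or more, all watered. Among the 5 genes described by an Arabidopsis locus (At1g16060 or At2g41710), the 3 that were tested moved in different ways. At1g16060 is a relative of WRINKLED 1, a switch for fatty acid synthesis. Over the 7 tested genes the calls with drought were 0 higher and 5 lower in OE, against 27.8% and 35% of all tested genes. In WT they were 1 higher and 1 lower, against 33.9% and 21.7%, and under median-of-ratios scaling the WT split became 1 and 3.

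ANT gene Potri.002G114800 had 0.141, 0.0985 and 0.168 FPKM in OE drought leaves, 3.12, 2.36 and 3.47 FPKM in OE watered leaves, 2.01, 0.783 and 0.57 FPKM in WT drought leaves and 1.76, 1.75 and 2.86 FPKM in WT watered leaves. The 3 OE drought libraries were the lowest of the 12. It fell with drought in OE (-1.80 ± 0.25, adjusted p = 5.71e-05), and in WT the difference was not called (-0.60 ± 0.25, adjusted p = 0.056). Under drought it was lower in OE than in WT (-0.84 ± 0.25, adjusted p = 0.0249). The responses also differed (-1.20 ± 0.35, adjusted p = 0.0401), a call that did not hold under no filter, median-of-ratios scaling or the replicate block, nor without OE drought replicate 4, 5 or 6, OE watered replicate 1 or 3, WT drought replicate 4 or 5, or WT watered replicate 1 or 2 (adjusted p up to 0.0958). The difference under drought did not hold under a fit of the compared groups alone, nor without OE drought replicate 4 or 5, or WT drought replicate 4 (adjusted p up to 0.0936).

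AIL5 gene Potri.006G167700 had 0.392, 0.546 and 0.332 FPKM in OE drought leaves, 2.22, 2.38 and 3.31 FPKM in OE watered leaves, 1.16, 2.03 and 0.889 FPKM in WT drought leaves and 1.27, 1.46 and 2.37 FPKM in WT watered leaves. It too was lowest in the 3 OE drought libraries, with a fall in OE (-1.34 ± 0.22, adjusted p = 0.00025) and no call in WT (-0.20 ± 0.22, adjusted p = 0.453). Its lower level in OE under drought (-0.70 ± 0.22, adjusted p = 0.0347) did not hold under median-of-ratios scaling or a fit of the compared groups alone, nor without OE drought replicate 4, 5 or 6, or WT drought replicate 4 or 5 (adjusted p up to 0.118). OE and WT responses differed too (-1.14 ± 0.32, adjusted p = 0.0346), a call that did not hold under median-of-ratios scaling, nor without OE drought replicate 4, 5 or 6, OE watered replicate 1, 2 or 3, WT drought replicate 4 or 5, or WT watered replicate 1 or 2 (adjusted p up to 0.0839). The second AIL5 gene, Potri.018G091600, had 0.438, 0.267 and 0.409 FPKM in OE drought leaves, 4.13, 2.39 and 8.28 FPKM in OE watered leaves, 1.6, 1.59 and 0.847 FPKM in WT drought leaves and 3.27, 3.62 and 3.8 FPKM in WT watered leaves. It fell in both OE (-1.99 ± 0.30, adjusted p = 0.000119) and WT (-0.98 ± 0.30, adjusted p = 0.0158), and the responses did not differ by the test (-1.02 ± 0.42, adjusted p = 0.116). The fall in WT did not hold without WT drought replicate 6 (adjusted p up to 0.0537). ANT gene Potri.014G012200 ranged from 0.461 to 3.90 FPKM and fell in OE (-1.02 ± 0.26, adjusted p = 0.00441). Its difference in WT was not called (-0.57 ± 0.26, adjusted p = 0.0791), nor was that between the responses.

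Both genes described as At2g41710 differed between the genotypes under drought. Potri.006G049700 (chromosome 6, bases 3580327 to 3583956 on the minus strand) had 6.4, 4.35 and 6.51 FPKM in OE drought leaves, 4.41, 3.91 and 5.06 FPKM in OE watered leaves, 16.8, 11.5 and 9.37 FPKM in WT drought leaves and 2.66, 3.27 and 3.04 FPKM in WT watered leaves. The 3 WT drought libraries were the highest of the 12. In OE the groups overlapped (0.30 ± 0.22, adjusted p = 0.253), and drought raised it in WT (1.73 ± 0.22, adjusted p = 5.33e-05). Levels under drought were lower in OE than in WT (-0.98 ± 0.22, adjusted p = 0.00748), a call that did not hold under a fit of the compared groups alone (adjusted p up to 0.0581). The drought responses differed (-1.43 ± 0.31, adjusted p = 0.0142), and that call held throughout.

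Potri.016G056400 had 1.21, 1.07 and 1.12 FPKM in OE drought leaves, 3.1, 3.74 and 3.94 FPKM in OE watered leaves, 5.47, 2.4 and 2.39 FPKM in WT drought leaves and 2.42, 2.79 and 2.54 FPKM in WT watered leaves. Drought lowered it in OE (-1.10 ± 0.23, adjusted p = 0.00143), where the 3 drought libraries were the lowest of the 12, and in WT the groups overlapped (0.23 ± 0.23, adjusted p = 0.408). Drought leaves of OE held less than those of WT (-0.98 ± 0.23, adjusted p = 0.0104), a call that did not hold under a fit of the compared groups alone (adjusted p up to 0.0673). The drought responses differed as well (-1.34 ± 0.33, adjusted p = 0.0235), which did not hold without WT watered replicate 1 or 2 (adjusted p up to 0.0537). The tested At1g16060 gene, Potri.001G041500, ranged from 0.421 to 2.14 FPKM over the 12 libraries and was called in no comparison.

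The site-type SPL genes that fell most are relatives of Arabidopsis SPL3, SPL4 and SPL5, small SPL factors that promote flowering, and of snapdragon SBP1, which belongs to the same group. SPL5 gene Potri.011G116800 (chromosome 11, bases 14192309 to 14194697 on the minus strand) had 1.09, 1.27 and 1.23 FPKM in OE drought leaves, 25.8, 21.2 and 18.2 FPKM in OE watered leaves, 8.65, 5.86 and 3.67 FPKM in WT drought leaves and 16.4, 22.02 and 22.4 FPKM in WT watered leaves. Its OE drought, WT drought and watered libraries form 3 bands that do not overlap. Drought lowered it in OE (-3.36 ± 0.24, adjusted p = 4.89e-07) and in WT (-1.64 ± 0.24, adjusted p = 0.000183). Under drought it was lower in OE than in WT (-1.62 ± 0.24, adjusted p = 0.00111). The fall was deeper in OE, with a difference between the responses of -1.72 ± 0.34 (adjusted p = 0.0111). These 4 calls held throughout.

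SBP1 gene Potri.004G046700 had 0, 0.329 and 0 FPKM in OE drought leaves, 14.4, 16.7 and 10.4 FPKM in OE watered leaves, 0.983, 0.545 and 0.529 FPKM in WT drought leaves and 24.1, 18.4 and 22.3 FPKM in WT watered leaves. The OE drought libraries hold 0, 3 and 0 fragments of it and the WT drought libraries 9, 5 and 5. The fall with drought was of like size in OE (-3.73 ± 0.21, adjusted p = 9.54e-08) and WT (-3.75 ± 0.21, adjusted p = 1.66e-07), and with so few fragments under drought its size rests on the pseudocount: limma-voom gave -7.07 in OE and -4.92 in WT. Under drought OE was lower without overlap, and the test lay just over the threshold (-0.61 ± 0.21, adjusted p = 0.050034). limma-voom called that difference (-2.81, adjusted p = 0.0238).

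SPL5 gene Potri.007G138800 had 0.544, 0.262 and 0.936 FPKM in OE drought leaves, 4.97, 4.81 and 5.39 FPKM in OE watered leaves, 1.92, 2.13 and 0.548 FPKM in WT drought leaves and 6.2, 8.24 and 8.02 FPKM in WT watered leaves. Drought libraries lay below watered ones in both genotypes, with falls of similar size in OE (-1.96 ± 0.26, adjusted p = 5.06e-05) and WT (-1.80 ± 0.26, adjusted p = 0.000164). SPL4 gene Potri.001G398200 had 0.288, 0.452 and 0.22 FPKM in OE drought leaves, 7.6, 7.05 and 5.9 FPKM in OE watered leaves, 1.65, 0.6 and 0.218 FPKM in WT drought leaves and 2.24, 2.72 and 7.41 FPKM in WT watered leaves. It fell in OE (-2.57 ± 0.35, adjusted p = 5.61e-05) and WT (-1.43 ± 0.35, adjusted p = 0.0047), and WT watered replicate 3 stood well above the other 2 of its group. The responses of neither gene differed by the test (0.797 and 0.129 as adjusted p).

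Potri.014G057800, whose description SPL7 refers to a rice protein of the site type, had 0.981, 0.195 and 1.38 FPKM in OE drought leaves, 4.87, 6.53 and 5.67 FPKM in OE watered leaves, 3.11, 3.49 and 2.31 FPKM in WT drought leaves and 5.37, 5.23 and 4.04 FPKM in WT watered leaves. Drought lowered it in OE (-1.90 ± 0.25, adjusted p = 3.97e-05), and the difference in WT was not called (-0.57 ± 0.25, adjusted p = 0.0692). Under drought it was lower in OE without overlap (-1.15 ± 0.25, adjusted p = 0.007), a call that did not hold under a fit of the compared groups alone (adjusted p up to 0.0509). Its OE and WT responses differed (-1.33 ± 0.35, adjusted p = 0.0294), a call that did not hold under a pseudocount of 0.1 FPKM, median-of-ratios scaling or the replicate block, nor without OE watered replicate 2, WT drought replicate 4 or 5, or WT watered replicate 1, 2 or 3 (adjusted p up to 0.0687).

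The 3 SPL6 genes, whose Arabidopsis relative is known for a part in immunity, differed among themselves. Potri.008G097900 had 3.72, 2.54 and 4.42 FPKM in OE drought leaves, 0.558, 1.22 and 0.373 FPKM in OE watered leaves, 6.24, 6.37 and 4.47 FPKM in WT drought leaves and 0.377, 0.226 and 0.308 FPKM in WT watered leaves. Every drought library lay above every watered one, and it rose in OE (1.42 ± 0.23, adjusted p = 0.000191) and in WT (2.35 ± 0.23, adjusted p = 7.94e-06). A second SPL6 gene, Potri.015G060400, rose in WT (1.13 ± 0.35, adjusted p = 0.0164), a call that did not hold without WT watered replicate 1 (adjusted p up to 0.0593), and had 5.99, 1.81 and 7.82 FPKM in OE drought leaves and 9.53, 8.62 and 11.7 FPKM in WT drought leaves, with OE drought replicate 5 the lowest. The third, Potri.010G154300, reached at most 2.79 FPKM in any library and fell in OE (-1.05 ± 0.30, adjusted p = 0.00817).

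The remaining site-type genes are given by their fold changes. SPL12 gene Potri.001G055900, of the rice numbering, fell in OE (-1.03 ± 0.18, adjusted p = 0.000369) and was lower in OE than in WT under drought (-0.56 ± 0.18, adjusted p = 0.0376), a call that did not hold under median-of-ratios scaling, a fit of the compared groups alone or the replicate block, nor without OE drought replicate 4 or 5, WT drought replicate 4 or 5, or WT watered replicate 1, 2 or 3 (adjusted p up to 0.14). SPL9 gene Potri.016G048500, whose Arabidopsis relative sets the timing of phase change and the rate of leaf initiation, fell in OE (-0.93 ± 0.21, adjusted p = 0.00263) and not by the test in WT (-0.19 ± 0.21, adjusted p = 0.478). Its drought responses in OE and WT did not differ by the test (-0.74, adjusted p = 0.111). SBP1 gene Potri.011G055900 fell in OE (-0.80 ± 0.21, adjusted p = 0.0065) and in WT (-0.74 ± 0.21, adjusted p = 0.0118), where the call did not hold without WT watered replicate 3 (adjusted p up to 0.0554). SPL13B gene Potri.015G098900 fell in OE (-0.92 ± 0.34, adjusted p = 0.0316), which did not hold under a fit of the compared groups alone, nor without OE drought replicate 5, or OE watered replicate 1 or 3 (adjusted p up to 0.111). Potri.003G172600, Potri.018G149900 and Potri.003G169400 were called in no comparison.

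The types without a miR156 site had the higher summed level in every group. With drought 8 of the 10 tested genes rose in OE and 6 in WT, against 27.8% and 33.9% of all tested genes. SPL14 gene Potri.002G002400 (chromosome 2, bases 156428 to 162756 on the minus strand), a relative of the large Arabidopsis SPL factors SPL1, SPL12 and SPL14, had 58.4, 74.1 and 50.7 FPKM in OE drought leaves, 9.43, 13.8 and 9.85 FPKM in OE watered leaves, 22.01, 24.1 and 31.3 FPKM in WT drought leaves and 9.83, 9.31 and 10.04 FPKM in WT watered leaves. OE drought, WT drought and watered libraries did not overlap. It rose in OE (2.37 ± 0.19, adjusted p = 1.04e-06) and in WT (1.31 ± 0.19, adjusted p = 0.000167), and under drought was higher in OE (1.21 ± 0.19, adjusted p = 0.00151). The larger rise in OE (1.06 ± 0.27, adjusted p = 0.0267) did not hold under the replicate block, nor without OE drought replicate 4 or 5, OE watered replicate 1 or 3, WT drought replicate 4 or 5, or WT watered replicate 1, 2 or 3 (adjusted p up to 0.0648), while the other 3 calls held throughout.

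The second SPL14 gene, Potri.005G258700, was singled out after its values were seen. It had 55.4, 62.9 and 52.2 FPKM in OE drought leaves, 10.4, 12.9 and 10.97 FPKM in OE watered leaves, 27.6, 24.8 and 38.6 FPKM in WT drought leaves and 13.4, 10.8 and 13.1 FPKM in WT watered leaves. As for Potri.002G002400, its OE drought libraries were the highest, its WT drought libraries came next and the watered libraries of both genotypes overlapped. It rose in OE (2.22 ± 0.18, adjusted p = 9.22e-07) and WT (1.20 ± 0.18, adjusted p = 0.000172) and was higher in OE under drought (0.91 ± 0.18, adjusted p = 0.00444). That its rise was larger in OE (1.02 ± 0.25, adjusted p = 0.0233) is a call that did not hold under the replicate block, nor without OE watered replicate 1, WT drought replicate 4 or 5, or WT watered replicate 1 or 3 (adjusted p up to 0.066).

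SPL8 gene Potri.002G142200 (chromosome 2, bases 10545894 to 10548075 on the plus strand) was near absent in watered leaves and well expressed under drought. SPL8 of Arabidopsis acts in pollen sac development and gibberellin signalling. Potri.002G142200 had 38.9, 31.2 and 40.1 FPKM in OE drought leaves, 0.287, 0.235 and 0.157 FPKM in OE watered leaves, 13.98, 9.47 and 19.7 FPKM in WT drought leaves and 0.291, 0 and 0.238 FPKM in WT watered leaves. It rose in OE (4.94 ± 0.23, adjusted p = 3.29e-08) and WT (3.66 ± 0.23, adjusted p = 3.65e-07), and every OE drought library was above every WT drought library (1.34 ± 0.23, adjusted p = 0.00245). Those 3 calls held throughout. No watered library holds more than 4 fragments of it, so the size of the rise and the difference between the responses (1.27 ± 0.33, adjusted p = 0.0276) rest on the pseudocount, and limma-voom gave rises of 7.14 in OE and 6.53 in WT. That difference did not hold under a pseudocount of 0.1 FPKM or limma-voom on recovered fragments, nor without OE drought replicate 4, OE watered replicate 1, WT drought replicate 4, or WT watered replicate 1 or 3 (adjusted p up to 0.709).

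The other SPL8 gene, Potri.014G057700, went the other way. It is named after its values were seen. It had 2.76, 1.26 and 3.16 FPKM in OE drought leaves, 8.66, 5.72 and 12.7 FPKM in OE watered leaves, 1.98, 2.24 and 7.53 FPKM in WT drought leaves and 9.03, 14.7 and 9.25 FPKM in WT watered leaves, and it fell in OE (-1.55 ± 0.41, adjusted p = 0.00582) and in WT (-1.43 ± 0.41, adjusted p = 0.011). WT drought replicate 6 lay well above the other 2 WT drought libraries, and both calls held throughout.

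The 6 remaining tested genes without a site were 3 SPL1, 1 SPL12 and 2 SPL7 genes beside the pair of SPL8 and SPL14 genes above. SPL7 is the Arabidopsis regulator of copper balance. SPL12 gene Potri.014G114300 rose in OE (1.04 ± 0.17, adjusted p = 0.000271) and WT (0.97 ± 0.17, adjusted p = 0.00068) alike. SPL7 gene Potri.010G026200 rose in OE (0.73 ± 0.16, adjusted p = 0.00179) and WT (0.67 ± 0.16, adjusted p = 0.00385), and SPL7 gene Potri.008G197000 in OE (1.17 ± 0.24, adjusted p = 0.00132). Of the SPL1 genes, Potri.010G154000 rose by small margins in OE (0.37 ± 0.15, adjusted p = 0.0472) and WT (0.39 ± 0.15, adjusted p = 0.0422), Potri.008G098600 in OE alone by the test (0.45 ± 0.16, adjusted p = 0.0268), and Potri.002G188700 was called in no comparison. The rise of Potri.010G154000 in OE did not hold under a fit of the compared groups alone, nor without OE drought replicate 4 or 6, OE watered replicate 1 or 3, WT drought replicate 4 or 5, or WT watered replicate 1, 2 or 3 (adjusted p up to 0.133), and that in WT did not hold under median-of-ratios scaling or a fit of the compared groups alone, nor without OE drought replicate 4 or 6, OE watered replicate 1, WT drought replicate 4 or 6, or WT watered replicate 1, 2 or 3 (adjusted p up to 0.521). The rise of Potri.008G098600 did not hold under a fit of the compared groups alone, nor without OE drought replicate 4 or 6, or OE watered replicate 1 (adjusted p up to 0.117).

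**Figure D3:**
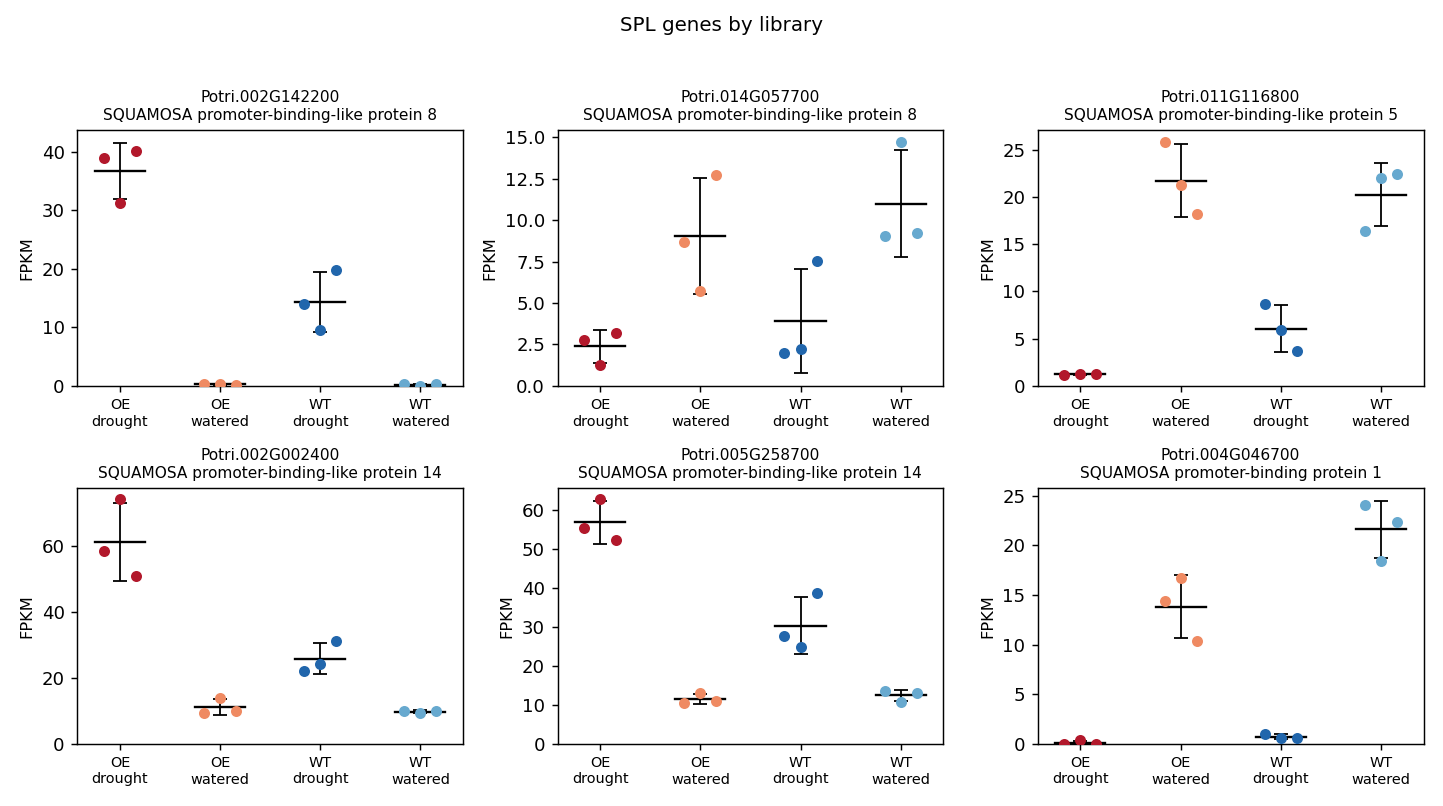
Each panel plots FPKM of 1 SPL gene (vertical axis, from 0) in OE drought, OE watered, WT drought and WT watered leaves, with a point for each library and bars for the mean ± SD of 3. OE drought points are the highest for Potri.002G142200 and both SPL14 genes and the lowest for Potri.011G116800, while the second SPL8 gene, Potri.014G057700, is lower under drought in both genotypes.

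The SPL genes also differ in build and place. The gene lengths implied by the FPKM steps were 1302 to 4405 bases for the 10 genes without a site for which they could be recovered (median 3967) and 786 to 4235 bases for the 17 of the site type (median 2316). Places are those of the authors' table, whose genome build was not given, and the order of these genes in Populus ussuriensis itself was not analysed. At 4 places a pair of SPL genes lies within 100000 bases, with 0 (chromosome 14), 1 (chromosome 2), 2 (chromosome 10) or 4 (chromosome 8) other genes of the table between them. SPL8 gene Potri.002G142200 and site-type gene Potri.002G142400 lie 7474 bases apart on chromosome 2, and SPL8 gene Potri.014G057700 and site-type gene Potri.014G057800 lie 10747 bases apart on chromosome 14, in the same order and facing each other in both. SPL1 and SPL6 genes lie 41631 bases apart on chromosome 10 (Potri.010G154000 and Potri.010G154300) and 57235 bases apart on chromosome 8 (Potri.008G098600 and Potri.008G097900), pointing away from each other in both. On chromosome 2 the SPL8 gene rose with drought while its neighbour stayed at 0.298 to 1.498 FPKM, and on chromosome 14 both genes fell in OE. On chromosomes 8 and 10 the SPL1 genes rose slightly in OE, while the SPL6 gene rose in OE on chromosome 8 and fell in OE on chromosome 10.

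**Figure D4:**
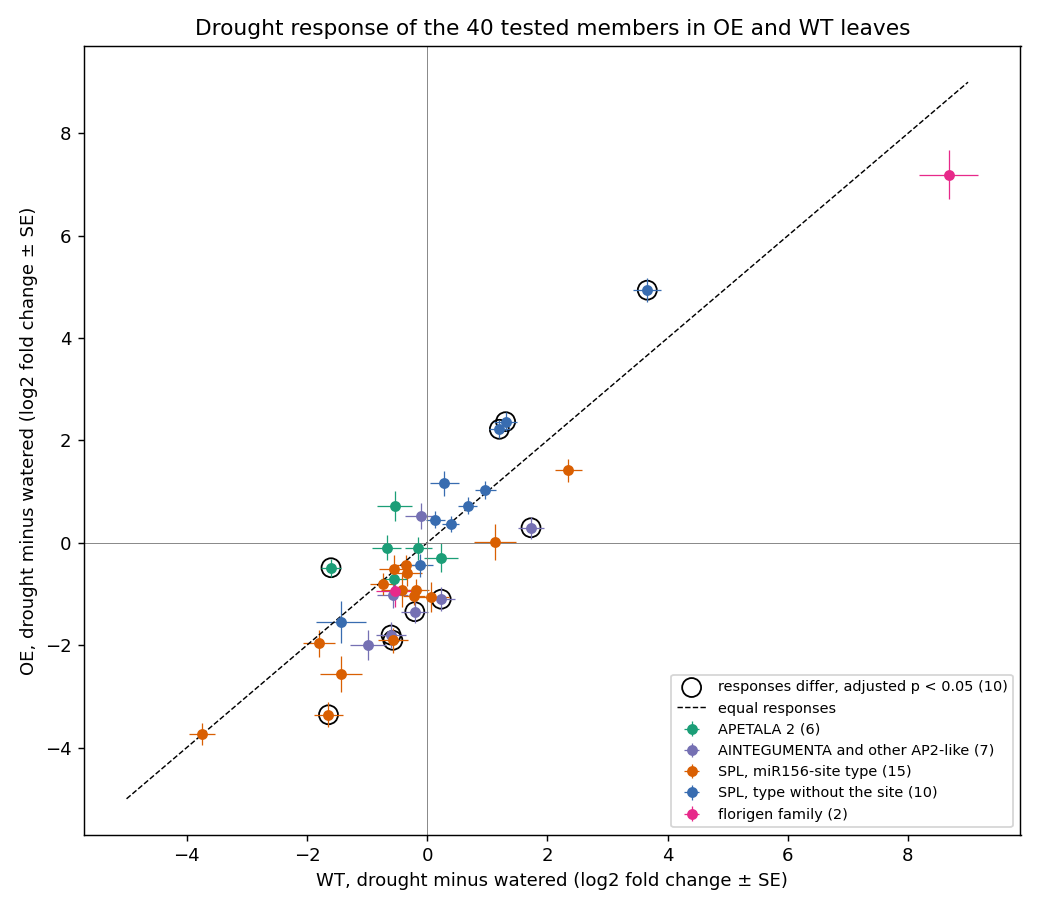
Each point is 1 of the 40 tested genes, with its log2 fold change for drought minus watered in OE (vertical axis) against that in WT (horizontal axis), bars of ± SE and colours by class. Circles mark the 10 genes whose responses differ by the test, and the dashed line marks equal responses. Site-type SPL genes lie mostly below 0 on both axes and SPL genes without a site mostly above.

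The largest fold change with drought among the 40 tested genes, in OE and in WT, was that of a CEN/FT-type gene. CEN-like protein 1 gene Potri.015G141300 (chromosome 15, bases 14845355 to 14846276 on the plus strand) had 258, 391 and 229 FPKM in OE drought leaves, 1.06, 1.16 and 0.664 FPKM in OE watered leaves, 795, 1095 and 209 FPKM in WT drought leaves and 0.77, 0 and 0.504 FPKM in WT watered leaves. No watered library exceeded 7 fragments, while the drought libraries held 1543 to 7862, so the size of the rise rests on the pseudocount and its direction does not. It rose in OE (7.19 ± 0.49, adjusted p = 2.98e-07) and in WT (8.68 ± 0.49, adjusted p = 1.64e-07), and both calls held throughout. The UniProt description places this protein with the CEN type, and the table's second description, from the NR database, calls it flowering locus T like, so the files do not settle whether its nearest relatives promote or oppose flowering.

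Under drought the difference of Potri.015G141300 between OE and WT was not called (-0.99 ± 0.49, adjusted p = 0.141), nor was that between the responses (-1.48 ± 0.69, adjusted p = 0.152). WT drought replicate 6 lay far below the other 2 WT drought libraries and was the lowest of all 6 drought libraries. Without that library OE was lower (-1.71, adjusted p = 0.00148) and the responses differed (-2.20, adjusted p = 0.00308). Its mean correlation with its own group (0.926) was the lowest of the 12 libraries.

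HEADING DATE 3A is the rice counterpart of FT. HEADING DATE 3A gene Potri.010G179700 was at the edge of detection, with 0, 0.109 and 0.106 FPKM in OE drought leaves, 1.06, 0.644 and 1.55 FPKM in OE watered leaves, 0, 0.541 and 0 FPKM in WT drought leaves and 0.718, 0 and 1.7 FPKM in WT watered leaves, and no library held more than 13 fragments of it. It fell with drought in OE (-0.94 ± 0.32, adjusted p = 0.0225), a call that did not hold without OE drought replicate 4, or OE watered replicate 1 or 3 (adjusted p up to 0.0779). In WT the groups overlapped (-0.53 ± 0.32, adjusted p = 0.176). The second such gene, Potri.008G077700, was above 0 in 1 library alone (0.244 FPKM), and CEN-like protein 2 gene Potri.004G203900 held at most 3 fragments in any library. Phloem is the tissue in which FT is made in Arabidopsis, and its marker list mixes SUC2 with genes of sieve elements. The summed level of the 23 phloem genes (SUC2 and sieve element occlusion proteins) was 15.5 to 17.5 FPKM in OE drought leaves, 126 to 286 in OE watered leaves, 33.3 to 57.7 in WT drought leaves and 171 to 213 in WT watered leaves. Of these 23, 15 were called lower in OE and 13 in WT under drought, and their part in the changes above was not tested. The 13 called in WT are sieve element genes. SUC2 gene Potri.019G085800 had 16.4, 14.4 and 16.02 FPKM in OE drought leaves, 44.99, 53.8 and 34.04 FPKM in OE watered leaves, 51.6, 46.7 and 28.6 FPKM in WT drought leaves and 28.6, 24.4 and 35.5 FPKM in WT watered leaves, so it made up most of the WT drought sum. The other SUC2 gene, Potri.013G115200, was the 1 gene of the list called higher in OE than in WT in watered leaves (2.52, 3.73 and 3.099 FPKM in OE, against 0.0912, 0.328 and 0.249 FPKM in WT).

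**Figure D5:**
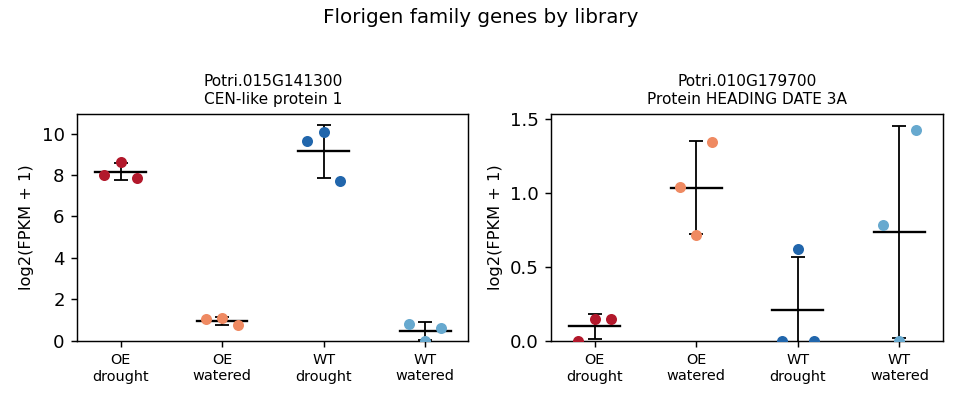
The panels plot log2(FPKM + 1) (vertical axis) of the 2 tested CEN/FT-type genes in OE drought, OE watered, WT drought and WT watered leaves, with a point for each library and bars for the mean ± SD of 3. Potri.015G141300 is high in all 6 drought libraries, with WT drought replicate 6 below the other 2 WT drought libraries, and Potri.010G179700 reaches at most 1.70 FPKM in any library.

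Genes that act upstream or downstream of these families in Arabidopsis are given here by counts. They are to be read against the shares of all tested genes called. With drought these were 27.8% higher and 35% lower in OE (62.8% together), and 33.9% higher and 21.7% lower in WT (55.6% together). CONSTANS is the daylength factor that switches on FT, and of 23 tested CONSTANS and CONSTANS-like genes 7 rose and 15 fell in OE and 6 rose and 13 fell in WT. The deepest fall was that of CONSTANS-LIKE 16 gene Potri.015G054600, with 0.462 ± 0.365 FPKM in OE drought leaves, 112 ± 16.5 in OE watered leaves, 0.901 ± 0.892 in WT drought leaves and 139 ± 13.1 in WT watered leaves (SD, n = 3 each). The single gene of this list whose responses differed was CONSTANS-LIKE 2 gene Potri.017G107500 (-2.60 ± 0.70, adjusted p = 0.0316). GIGANTEA and the ADAGIO proteins, clock factors upstream of CONSTANS, rose in 4 of 6 genes in each genotype and fell in none, led by ADAGIO 3 gene Potri.010G105700 (OE 3.66 ± 0.29, adjusted p = 7.84e-07, WT 2.66 ± 0.29, adjusted p = 1.75e-05).

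The MADS-box factors SOC1 and AGL8 act in Arabidopsis below FT and SPL proteins in the switch to flowering. All 4 tested genes of this list (of 8) were lower in OE than in WT under drought, where 20.4% of all tested genes were called lower. The responses differed for 3, more negative in OE, against 10.5% of all tested genes called more negative. SOC1 gene Potri.015G098400 averaged 49.6 ± 12.9 FPKM in OE drought leaves, 54.9 ± 5.54 in OE watered leaves, 98.96 ± 30.6 in WT drought leaves and 41.8 ± 5.19 in WT watered leaves (SD, n = 3 each), with no call in OE (-0.17 ± 0.24, adjusted p = 0.549) and a rise in WT (1.19 ± 0.24, adjusted p = 0.00144). AGL8 gene Potri.012G062300 fell in OE (-1.62 ± 0.18, adjusted p = 1.34e-05) and not by the test in WT (-0.40 ± 0.18, adjusted p = 0.0848). TEMPRANILLO 1, a repressor of FT, has 2 genes in the table. Potri.008G117100 rose in WT (2.41 ± 0.35, adjusted p = 0.000141) and was lower in OE under drought (-1.65 ± 0.35, adjusted p = 0.00593), while Potri.010G129200 rose in OE (2.17 ± 0.51, adjusted p = 0.00274).

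Of the partners of FT proteins, 2 of 13 14-3-3 genes rose and 3 fell in OE, 5 rose and 2 fell in WT, and 2 of 3 FD genes fell in OE with none called in WT. Of 4 genes for making microRNAs (Dicer homolog 1, 2 SERRATE genes and HASTY), 3 rose in OE and 2 in WT. These counts are near the shares of all genes called in either direction, though all of them are rises. Of 9 tested genes of Polycomb and related chromatin factors, a class known for holding developmental genes silent, 4 rose and 1 fell in OE and 3 rose in WT. The shares called in either direction among 14-3-3 and chromatin genes were at or below those of all genes. None of the genes in these lists differed between OE and WT in watered leaves by the test.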

How the data were processed

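Paired-end mRNA libraries were deposited as 1 table of FPKM, made by the authors, for 35747 protein-coding genes. HISAT2 2.1.0 and Bowtie2 2.2.3 are named, per the submitters' processing notes, while the genome build, the counting tool and the use of strand were not given. A second deposited table, of fewer genes, was not used. FPKM values of a library are whole multiples of the worth of 1 fragment, and whole fragments were recovered for 34231 of 34231 genes above 0 in at least 2 libraries (tolerance 0.02). Nearly identical gene copies may share fragments.

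Genes that reached 1 FPKM in 3 or more libraries were fitted with limma 3.58.1 (R 4.3.3) on log2(FPKM + 1), with intensity trend, 4 group means and 8 residual degrees of freedom, and Benjamini-Hochberg adjustment ran over the 25373 genes. The script was tested on simulated data. The 5 comparisons include the difference between the drought responses, which is the genotype by watering interaction. Alternatives were a pseudocount of 0.1, no filter, a filter of 5 FPKM, median-of-ratios scaling, limma-voom on recovered fragments, only the compared groups, a log2 fold change of at least 1, each library left out, and a replicate block.

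The members and gene lists were chosen with earlier results of these data known, and some list patterns were tightened after the first matches (AGL80, ULTRAPETALA 1 and CLE genes were dropped). Values per library are given for the tested APETALA 2 and CEN/FT-type genes and, for SPL and other AP2-like genes, for up to 4 called genes a comparison by size of change. The remaining members are given by range or fold change. From each other list up to 3 called genes a comparison may be named. No sequence is printed.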

Additional observations from a re-analysis of the deposited data

Results flagged for a closer look

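The drought response differed between OE and WT, by limma's test of the difference itself, for 10 of the 40 tested genes of these families. Among all tested genes, 4.58% were called more positive and 10.5% more negative in OE (15.1% together). For the other tested members the difference was not called, also where a drought call was made in 1 genotype alone. The difference, OE response minus WT response on the log2(FPKM + 1) scale, was positive for SPL8 gene Potri.002G142200 (1.27, adjusted p = 0.0276), SPL14 genes Potri.005G258700 (1.02, adjusted p = 0.0233) and Potri.002G002400 (1.06, adjusted p = 0.0267) and APETALA 2 gene Potri.005G140700 (1.11, adjusted p = 0.0153). It was negative for SPL5 gene Potri.011G116800 (-1.72, adjusted p = 0.0111), Potri.014G057800 (-1.33, adjusted p = 0.0294), ANT gene Potri.002G114800 (-1.20, adjusted p = 0.0401), AIL5 gene Potri.006G167700 (-1.14, adjusted p = 0.0346) and the At2g41710 genes Potri.016G056400 (-1.34, adjusted p = 0.0235) and Potri.006G049700 (-1.43, adjusted p = 0.0142). Potri.011G116800, Potri.006G049700 and Potri.005G140700 kept the call under every alternative in which they were tested. Each of the other calls was lost under some alternative, and the count of members called ran from 3 to 15 with a library left out. The median of this difference over all tested genes was -0.28.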

How the results depend on the processing

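No result for a member changed direction beyond the threshold in any alternative. In watered leaves no member was called for OE minus WT under any alternative, while the 35 calls over all genes became 19 with a pseudocount of 0.1, 20 with the 5 FPKM filter, 15 with limma-voom, 0 with the compared groups alone, 5 with the replicate block and 7 to 237 with a library left out. For OE minus WT under drought, the 13 members called became 7 with the compared groups alone, 5 with a log2 fold change of at least 1 and 9 to 20 with a library left out, and the 7517 genes became 3151, 3434 and 4195 to 9194. A log2 fold change of at least 1 left 10459 of 15941 genes called for drought in OE and 7958 of 14115 in WT. Leaving out a library gave 25 to 31 members and 14286 to 16748 genes in OE, and 16 to 21 members and 11441 to 14680 genes in WT. The 5 FPKM filter left 25 members tested, of which 19 were called for drought in OE. The difference between the responses was called for 6 members and 2152 genes with the replicate block, and for 3 to 15 members and 1478 to 6728 genes with a library left out, against 10 members and 3822 genes.

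Replicate numbers did not pair the libraries: the deviations of same-numbered libraries correlated at -0.50 to 0.22, and the block gave 12 members called for OE minus WT under drought. Median-of-ratios scaling changed the split of all genes called higher and lower to 3859 and 2574, against 2341 and 5176, for OE minus WT under drought, to 8009 and 8454, against 7051 and 8890, for drought in OE, to 5721 and 6896, against 8614 and 5501, for drought in WT, to 2026 and 1055, against 1163 and 2659, for the difference between responses, and to 20 and 14, against 25 and 10, for watered leaves. The cause of these shifts was not tested. Depth limits genes at a few fragments a library, and 3 libraries a group limit the rest.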

Other observations

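LEAFY, a floral meristem identity gene that SPL proteins switch on in Arabidopsis, was listed among the markers of the shoot meristem. Its gene Potri.015G106900 had 2.64, 6.85 and 2.21 FPKM in OE drought leaves, against 0.589, 0.490 and 0.523 FPKM in WT drought leaves, and 0 in all 6 watered libraries. WUSCHEL, the other gene of that list, was at 0 in all 6 drought libraries.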
